A study of Mus musculus with 24 samples.

Results

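The genes described here are 7 heat shock chaperone genes (Hspa1b, Hspa8, Hsph1, Dnajb1, Hspb1, Hspd1 and Hspe1) and 2 cold-inducible RNA-binding protein genes (Cirbp and Rbm3), followed over the day in mouse liver with and without the clock gene Mop3 (Arntl, also called Bmal1). They were chosen by gene name, and all array probes of those names were taken. Of the 9 genes, 8 were measured, by 12 probes that passed a filter on dim spots, out of 29793 such probes; the arrays carry probes for 27597 gene names in all. Hspa1b had no probe under its name or accession, and Hsph1 was found under its older name, Hsp110, through its accession.

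Both genotypes were on the C57Bl/6J strain and carried the floxed Mop3 allele. Mop3fxfx mice had the floxed allele without Cre, and Mop3fxfxCreAlb mice had it together with Cre under the albumin promoter, which is active in hepatocytes. No group with Cre and an unfloxed allele was analysed here, so an effect of Cre itself and of Mop3 loss cannot be told apart. Livers were taken every 4 h over the day under a light-dark cycle with food always present, at zeitgeber times (ZT, hours after lights on) 0 to 20, from mice of 10 and of 20 weeks. Each genotype, age and time had 1 two-colour array, 24 in all, 12 per genotype, and each array held RNA pooled from at least 3 mice. The other colour held a reference pool from 10-week mice of both genotypes.

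Heat shock proteins are chaperones that hold or refold unfolded proteins, and heat shock factor 1 (HSF1) raises their transcription when cells are warmed by binding heat shock elements in their promoters. CIRBP and RBM3 are RNA-binding proteins whose transcripts accumulate when cells are cooled mildly, so the groups respond to temperature in opposite ways. The body temperature of a mouse is higher in the dark, active phase, and daily rhythms of such genes in liver are known to follow whole-body cues as well as the clock of the hepatocytes.

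The heat shock element, written as inverted units of GAA, was searched on both strands in the 250 bases before the transcription start (RefSeq, build GRCm38.p6), because it is the sequence through which the chaperone genes are known to answer to temperature. A 2-unit element was taken as GAANNTTC or TTCNNGAA and was found in 12.9% of 32536 windows of that length. A 3-unit element, which extends either form by 1 more inverted unit after another NN and so contains the 2-unit one, was found in 0.47% of them. The window of Hspb1, the gene with the largest difference between genotypes among the 12 probes, lies at chr5:135887669-135887918 on the plus strand and held 2-unit matches 117 to 110 and 97 to 90 bases before the start, shown in capitals:
Hspb1: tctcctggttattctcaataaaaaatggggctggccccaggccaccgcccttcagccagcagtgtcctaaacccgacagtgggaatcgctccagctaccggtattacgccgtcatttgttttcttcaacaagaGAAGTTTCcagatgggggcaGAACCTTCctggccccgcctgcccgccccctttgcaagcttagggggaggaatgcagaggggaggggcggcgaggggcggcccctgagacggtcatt
Short stretches around the matches of 4 other genes, with the matches in capitals, show that the elements differ in length:
Hspa1b: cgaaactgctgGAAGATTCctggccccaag
Hsph1: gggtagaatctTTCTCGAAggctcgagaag
Hspe1: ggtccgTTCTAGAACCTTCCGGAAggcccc
Hspd1: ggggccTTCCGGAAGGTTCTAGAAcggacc
The stretches are chr17:34959324-34959353 (minus strand) for Hspa1b, chr5:149636351-149636380 (minus) for Hsph1 and chr1:55088053-55088082 for both Hspe1 (plus) and Hspd1 (minus). Hspe1 and Hspd1 are neighbours transcribed in opposite directions, and their single shared run holds overlapping 3-unit elements. No match was found in the windows of Dnajb1 and Cirbp, and Hspa8 and Rbm3 were not searched. The E-box CACGTG, the site bound by the MOP3 and CLOCK pair, reads the same on both strands and stood in 6.04% of the windows, among them 1 of the 2 windows of Hsph1 and 1 of the 2 of Hspd1. A match is a description of these letters and no measure of binding.

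All signed values below are log2 ratios of liver over reference, read as Cy5 over Cy3, which is against the labels: these put the liver sample in Cy3 and the reference in Cy5. Counted within each of the 6 slides with several arrays, 78.0% to 96.4% of probes varied more across arrays in Cy5 than in Cy3. If the labels hold, the sign of every ratio and difference turns and every peak moves by 12 h, while amplitudes, p-values and total counts stay. No 2 arrays correlated below -0.26. Each genotype, age and time had a single pool, and p-values measure the spread of these pools around the fitted curves. Well above background in Cy5 were between 56.7% and 70.3% of probes per array. Slides 1 to 3 held both genotypes at 10 weeks, and 1 slide held both at 20 weeks but at different times. Time of day was partly tied to slide. At 10 weeks slide 1 held ZT0 and ZT16, slide 2 ZT4 and ZT12 and slide 3 ZT8 and ZT20. At 20 weeks slide 5 held Mop3fxfx ZT0 to ZT12 and slide 7 Mop3fxfxCreAlb ZT8 to ZT20. Fitted rhythms and slide differences can therefore not be fully told apart. The 10-week Mop3fxfxCreAlb ZT16 array was alone on its slide and was the dimmest, with a median Cy5 intensity of 83.1.

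Arntl, the targeted gene, had log2 ratios in the 12 Mop3fxfx arrays from -2.18 to 1.60 with a median of 0.67, and in the 12 Mop3fxfxCreAlb arrays from -0.90 to 0.52 with a median of -0.45. Its fitted 24 h amplitude was 1.69 ± 0.17 (SE, log2) with a peak at ZT21.8 in Mop3fxfx livers and 0.22 ± 0.17 in Mop3fxfxCreAlb livers; in mouse liver it is known to peak around the end of the dark phase. The rhythm passed the test in Mop3fxfx and not in Mop3fxfxCreAlb livers, and the difference between them passed at adjusted p = 0.037. Whether its probe lies in the deleted part is not given in the sources used here. Liver markers were present: Alb, Apoa1, Ttr and Cps1 were all measured, and none of the 4 differed between genotypes.

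**Figure D1:**
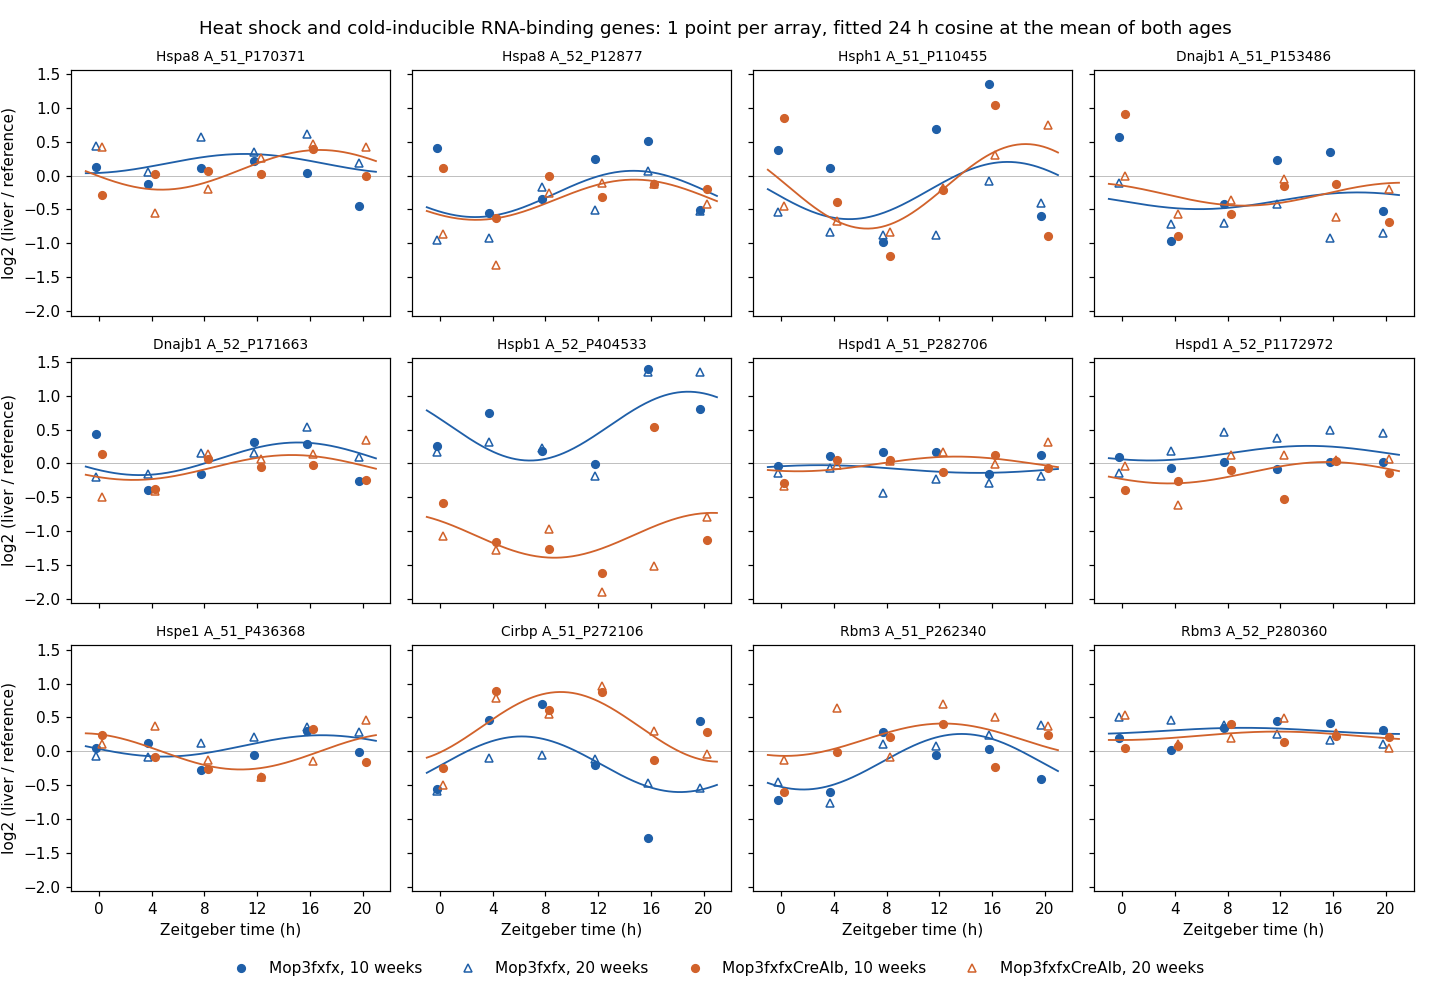
Log2 ratio of liver over reference (vertical axis) against zeitgeber time in hours (horizontal axis) for the 12 probes, 1 point per array, filled circles at 10 weeks and open triangles at 20 weeks, with the fitted 24 h cosine of each genotype at the mean of both ages. Hspb1 points of Mop3fxfxCreAlb livers lie below those of Mop3fxfx livers, apart from 1 array at 0.54, and the fitted curves of Cirbp peak at ZT6.2 and ZT9.2, those of Hsph1 at ZT17.2 and ZT18.5, with none passing the rhythm test.

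None of the 12 probes passed the test for a 24 h rhythm in either genotype. In Mop3fxfx livers 1.28% of all probes passed (381), and in Mop3fxfxCreAlb livers 0% did. The lowest adjusted p among the 12 was 0.26 in Mop3fxfx and 0.46 in Mop3fxfxCreAlb livers (limma, Benjamini-Hochberg over all 29793 probes). At an unadjusted p under 0.05, 1 of 12 probes passed in Mop3fxfx livers and 3 of 12 in Mop3fxfxCreAlb livers, against 11.4% and 8.27% of all probes. The fitted amplitudes are therefore given as values with their errors. Over the brightest probe of each of the 8 genes, the median amplitude was 0.28 in Mop3fxfx and 0.28 in Mop3fxfxCreAlb livers, and over all 20217 genes it was 0.11 and 0.10.

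Hsph1, the HSP110 nucleotide exchange factor of HSP70, spanned the widest range of the 12 probes in Mop3fxfx livers. Its log2 ratios ran from -0.97 to 1.35 with a median of -0.47 in Mop3fxfx and from -1.19 to 1.04 with a median of -0.30 in Mop3fxfxCreAlb livers. The lowest value of each genotype was that of the 10-week ZT8 array, and the highest that of the 10-week ZT16 array. Its fitted amplitude was 0.42 ± 0.25 with a peak at ZT17.2 ± 2.3 h in Mop3fxfx and 0.62 ± 0.25 at ZT18.5 ± 1.5 h in Mop3fxfxCreAlb livers, and neither passed (adjusted p = 0.72 and 0.65).

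Hspa8, the constitutive cytosolic HSP70, was read by 2 probes:
Hspa8, A_52_P12877: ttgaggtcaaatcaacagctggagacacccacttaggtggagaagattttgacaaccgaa
Hspa8, A_51_P170371: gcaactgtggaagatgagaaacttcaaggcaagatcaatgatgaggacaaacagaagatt
They are shown because they did not move together: their correlation over the 24 arrays was 0.20. A_51_P170371 was saturated in Cy5 on 8 of 24 arrays, so its differences can be compressed, and A_52_P12877 on none. A_52_P12877 had an amplitude of 0.34 ± 0.14 with a peak at ZT14.7 in Mop3fxfx and of 0.30 ± 0.14 at ZT14.7 in Mop3fxfxCreAlb livers, and the difference between the fitted rhythms was 0.05 ± 0.20. A_51_P170371 had an amplitude of 0.14 ± 0.10 at ZT11.1 in Mop3fxfx and of 0.29 ± 0.10 at ZT16.7 in Mop3fxfxCreAlb livers (unadjusted p = 0.026 in the latter, limma), with a difference between the fitted rhythms of 0.31 ± 0.14. None of these curves passed (adjusted p = 0.49 and 0.76 for A_52_P12877 and 0.79 and 0.53 for A_51_P170371), nor did the differences.

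Dnajb1, an HSP40 that delivers unfolded proteins to HSP70, also had 2 probes, correlated at 0.33. The dimmer probe, A_52_P171663, ran from -0.39 to 0.54 in Mop3fxfx and from -0.50 to 0.35 in Mop3fxfxCreAlb livers. Its fitted peaks fell at ZT15.1 and ZT14.6, with amplitudes of 0.24 ± 0.10 and 0.18 ± 0.10. The brighter probe, A_51_P153486, had amplitudes of 0.12 ± 0.20 and 0.17 ± 0.20, below their errors. Both genotypes' highest value of that probe was at 10 weeks and ZT0, at 0.57 and 0.91.

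Cirbp, unlike most of the chaperone probes, had its fitted peaks in the light phase. Its log2 ratios went from -1.28 to 0.70 with a median of -0.16 in Mop3fxfx and from -0.49 to 0.96 with a median of 0.42 in Mop3fxfxCreAlb livers. The peaks lay at ZT6.2 ± 1.6 h with an amplitude of 0.41 ± 0.17 in Mop3fxfx and at ZT9.2 ± 1.3 h with 0.51 ± 0.17 in Mop3fxfxCreAlb livers. Those amplitudes correspond to fitted peak-to-trough ratios of 1.77 and 2.04. Neither passed (adjusted p = 0.49 and 0.52), and the lowest Mop3fxfx value, -1.28, was the 10-week ZT16 array, where Hsph1 was at its highest.

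Rbm3, the other cold-inducible gene, gave different readings with its 2 probes, whose correlation was -0.06. A_51_P262340 ran from -0.77 to 0.39 in Mop3fxfx and from -0.60 to 0.70 in Mop3fxfxCreAlb livers, and its 4 lowest values in Mop3fxfx livers were those of ZT0 and ZT4 at both ages. Its amplitude in Mop3fxfx livers, 0.41 ± 0.12 with a peak at ZT13.7 ± 1.2 h, was the only one of the 12 with an unadjusted p under 0.05 in that genotype (p = 0.013 in the limma fit, adjusted p = 0.26). In Mop3fxfxCreAlb livers it was 0.24 ± 0.12 at ZT12.3. The dim probe A_52_P280360 had amplitudes of 0.05 ± 0.07 and 0.06 ± 0.07.

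Hspd1 and Hspe1 encode the mitochondrial chaperonin HSP60 and its partner HSP10, and they share a promoter region. Hspe1 ran from -0.28 to 0.35 in Mop3fxfx and from -0.38 to 0.47 in Mop3fxfxCreAlb livers. Its amplitude was 0.16 ± 0.08 with a peak at ZT16.9 in Mop3fxfx and 0.27 ± 0.08 at ZT22.7 in Mop3fxfxCreAlb livers. It was the only one of the 12 probes whose rhythm differed between genotypes at an unadjusted p under 0.05 (p = 0.047 in the limma fit), and it did not pass after adjustment; 2.82% of all probes had such an unadjusted p. Both Hspd1 probes had amplitudes of at most 0.16 in either genotype.

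**Figure D2:**
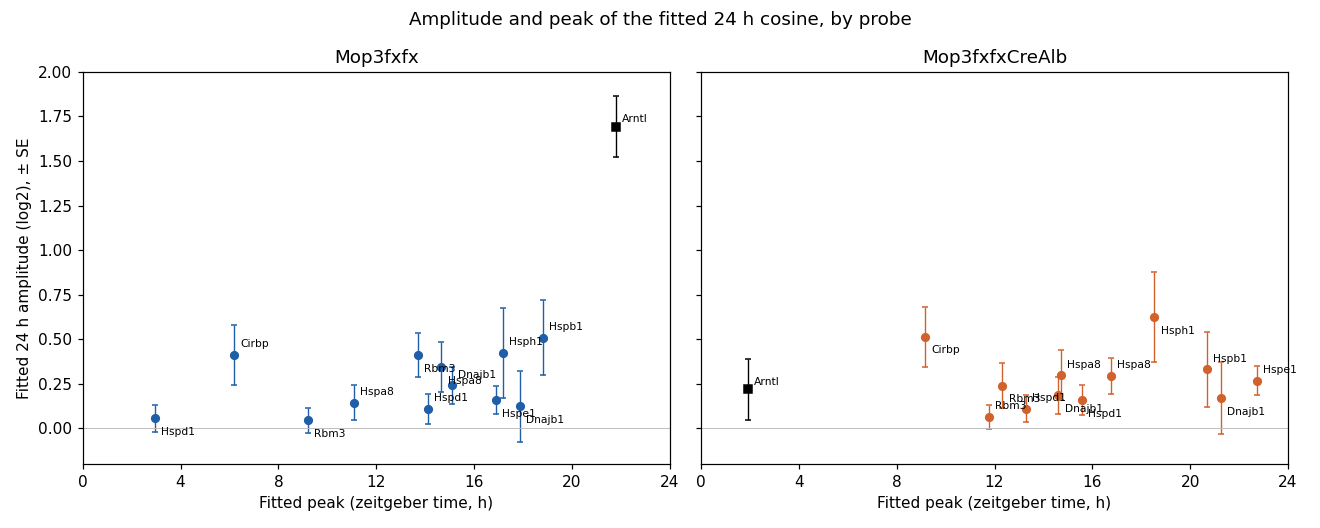
Fitted 24 h amplitude (vertical axis, log2, with SE) against fitted peak in hours of zeitgeber time (horizontal axis), Mop3fxfx livers on the left and Mop3fxfxCreAlb livers on the right. Circles are the 12 probes and the square is Arntl; Arntl drops from 1.69 to 0.22 between the panels, while none of the 12 probes passed a rhythm test in either.

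The difference in rhythm between genotypes passed for none of the 12 probes, and 0.0269% of all probes passed (8). The count of 0 in both rhythm tests and in their difference held in all 40 alternative settings. Those settings called at most 860 of all probes in Mop3fxfx livers, 131 in Mop3fxfxCreAlb livers and 19 for the difference. With so few calls, 0 of 12 was likely in any setting and is no measure of stability. For comparison, 13 of 19 core clock genes passed the rhythm test in Mop3fxfx livers and 0 of 19 in Mop3fxfxCreAlb livers (limma; 15 and 5 at an unadjusted p under 0.05), and the difference in rhythm passed for 1 of the 19, Arntl. Their median fitted amplitude was 0.86 in Mop3fxfx and 0.25 in Mop3fxfxCreAlb livers. The standard error of the amplitude difference between genotypes was from 0.11 to 0.14 for Hspe1, both Hspd1 probes, Hspa8 probe A_51_P170371 and Dnajb1 probe A_52_P171663. It was 0.24 for Cirbp, 0.30 for Hspb1 and 0.36 for Hsph1. These errors are no detection limits, and larger changes could be missed too. The amplitude of the core clock gene Per2, by its brightest probe, was 0.91 ± 0.14 in Mop3fxfx and 0.25 ± 0.14 in Mop3fxfxCreAlb livers, and its difference in rhythm did not pass. A dimmer Per2 probe, A_52_P536869, had amplitudes of 0.57 ± 0.24 at ZT0.7 in Mop3fxfx and 0.42 ± 0.24 at ZT0.0 in Mop3fxfxCreAlb livers. Neither passed (limma, adjusted p = 0.50 and 0.86).

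Hspb1 was lower in Mop3fxfxCreAlb livers at every time and age. HSPB1 is a small heat shock protein that binds unfolding proteins without ATP. Its probe, well above background on all 24 arrays and saturated on none, has the sequence below, shown because the clearest difference rests on it alone:
Hspb1, A_52_P404533: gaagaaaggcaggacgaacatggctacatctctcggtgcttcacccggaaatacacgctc
A second Hspb1 probe was above background in Cy5 on 1 of 24 arrays and was left out. The log2 ratios ran from -0.18 to 1.40 with a median of 0.28 in Mop3fxfx and from -1.90 to 0.54 with a median of -1.15 in Mop3fxfxCreAlb livers. In 11 of 12 Mop3fxfxCreAlb arrays the value lay below the lowest Mop3fxfx value. The exception, at 0.54, was the 10-week ZT16 array that was alone on its slide and dimmest, and its Mop3fxfx partner at that time stood at 1.40.

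The difference in the mean over the day was -1.61 ± 0.21 (SE, log2), a 3.06-fold lower level with a 95% interval of 2.25 to 4.15, and passed at adjusted p = 2.91e-05. Of the 12 probes 3 passed this test, against 20.2% of all probes, 9.88% higher and 10.4% lower in Mop3fxfxCreAlb livers. The Hspb1 difference had the same sign in 12 of 12 pairs of arrays of the same age and time. Within the slides that held both genotypes, the differences were -0.83, -1.75 and -1.69 at matched times and -2.53 on the 20-week slide with unmatched times, and with slide as a random block it was -1.66 (adjusted p = 3.46e-05). Without the lone ZT16 array it was -1.77. The 20-week arrays alone gave -1.80 (adjusted p = 0.001) and the 10-week arrays alone -1.43, where the call was lost (adjusted p = 0.080) in a fit that called 704 probes in all.

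By time, the Hspb1 difference ran from -1.04 at ZT0 to -2.04 at ZT20. None of these passed on its own in limma (lowest adjusted p = 0.092, at ZT16), nor did any time of the other probes, though 5 of the 12 probes had an unadjusted p under 0.05 at 1 or more of the 6 times, as did 27.2% of all probes; after adjustment between 0.0772% and 0.349% of all probes passed per time. Without the 10-week Mop3fxfxCreAlb ZT16 array the lowest adjusted p over the times became 0.001, and without the 20-week one it became 0.002. The fitted rhythm of Hspb1 had an amplitude of 0.51 ± 0.21 with a peak at ZT18.8 in Mop3fxfx and 0.33 ± 0.21 at ZT20.7 in Mop3fxfxCreAlb livers. In Mop3fxfx livers the 3 highest values were those of ZT16 at both ages and of ZT20 at 20 weeks, between 1.35 and 1.40, and the rhythm did not pass (adjusted p = 0.50).

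Livers hold several cell types, and in bulk RNA fewer cells of a type and less RNA per cell cannot be told apart. Of the 7 markers of stellate cells, fibroblasts and smooth muscle, 1 was higher in Mop3fxfxCreAlb livers (Lrat, by 0.57) and none lower; their mean log2 ratio ran from -0.65 to 0.15 in Mop3fxfx and from -0.48 to 0.12 in Mop3fxfxCreAlb arrays. Of 5 endothelial markers 1 was higher (Lyve1, by 0.44), of 6 macrophage and 3 lymphocyte markers none differed, and of 5 cholangiocyte markers 2 were higher (Sox9 by 1.06 and Spp1 by 1.39) while Krt19, Krt7 and Epcam did not pass. Of 3 adipocyte markers Cfd was lower, with a difference of -3.05, and Adipoq and Plin1 did not pass; the means ran from -0.15 to 1.15 and from -1.12 to 0.09. Alas2, 1 of 2 red cell markers measured, was lower, with a difference of -0.56. Over all 20217 genes, each by its brightest probe, 2206 were higher and 2234 lower in Mop3fxfxCreAlb livers. With that many genes called, single called markers are no measure of a change in cell types. The part of these marker differences in the difference of Hspb1 and of Cirbp was not tested.

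Cirbp was higher in Mop3fxfxCreAlb livers over the day. The difference in the mean was 0.55 ± 0.17, a 1.47-fold higher level with a 95% interval of 1.15 to 1.87 (adjusted p = 0.026), and it was higher in 10 of 12 pairs of arrays. The groups overlapped: 4 of 12 Mop3fxfxCreAlb values lay above the highest Mop3fxfx value. By time the largest differences were 1.07 at ZT12 and 0.96 at ZT16, and the smallest 0.16 at ZT20, none of which passed. The call did not hold with slide as a random block (0.48, adjusted p = 0.057) or with scan date (0.48, adjusted p = 0.051). Slide as a fixed term and the 10-week arrays alone (0.45) lost it too. It held in 13 of the 17 settings other than leaving out 1 array, with a highest limma adjusted p of 0.61. Within slides the differences at matched times were 0.31, 0.75 and -0.13, so the sign turned on 1 slide, and 0.66 at unmatched times. Leaving out the 20-week Mop3fxfxCreAlb ZT4 or ZT12 array also ended the call (0.51, adjusted p = 0.051, and 0.52, adjusted p = 0.052).

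Rbm3 did not pass. Its brighter probe differed by 0.32 ± 0.12 (adjusted p = 0.072), and its dim probe by -0.07 ± 0.07. The brighter probe was higher in Mop3fxfxCreAlb livers in 8 of 12 pairs. It passed when the 10-week Mop3fxfx ZT8, the 20-week Mop3fxfx ZT20, the 10-week Mop3fxfxCreAlb ZT0 or ZT16 or the 20-week Mop3fxfxCreAlb ZT8 array was left out, with differences from 0.37 to 0.39.

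Hspd1 gave opposite signs with its 2 probes. A_52_P1172972, which was not saturated, was lower in Mop3fxfxCreAlb livers, with a difference of -0.29 ± 0.08 (adjusted p = 0.019), in 10 of 12 pairs, with Mop3fxfx values from -0.14 to 0.49 and Mop3fxfxCreAlb values from -0.62 to 0.13. It reads this sequence:
Hspd1, A_52_P1172972: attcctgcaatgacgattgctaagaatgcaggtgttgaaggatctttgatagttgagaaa
A_51_P282706, saturated in Cy5 on 9 of 12 Mop3fxfx and 2 of 12 Mop3fxfxCreAlb arrays, differed by 0.08 ± 0.08 (adjusted p = 0.53). The probes correlated at -0.23. Slide as a random block kept the call of the former (-0.32, limma adjusted p = 0.023). Slide as a fixed term lost it, as did either age alone (-0.23 and -0.35). Of the 16 settings other than leaving out 1 array, 12 kept it.

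The remaining chaperone probes did not differ in their mean over the day. Hsph1 differed by 0.06 ± 0.25 (95% interval -0.46 to 0.59), the 2 Hspa8 probes by -0.09 ± 0.10 and -0.09 ± 0.14, the 2 Dnajb1 probes by 0.10 ± 0.20 and -0.13 ± 0.10 and Hspe1 by -0.08 ± 0.08. For Hsph1 the interval leaves room for a change of up to 0.59 on the log2 scale. At 20 weeks alone it was higher in Mop3fxfxCreAlb livers by 0.42 (limma, adjusted p = 0.035). That fit called 27.5% of all probes, and at 20 weeks no slide held both genotypes at the same time. At 10 weeks alone the Hsph1 value was -0.29. The limma test of whether the genotype difference changed with age gave adjusted p = 0.39.

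Hspa1a encodes an inducible HSP70 nearly identical to that of Hspa1b, and its 250-base promoter window differs from that of Hspa1b at 3 bases. It was on the array with 4 probes, and RNA of such near-identical copies can bind the same probe, so the values below are uncertain as to which copy they read. The brightest, A_52_P82741, ran from -1.76 to 1.07 with a median of -1.10 in Mop3fxfx and from -0.99 to 1.44 with a median of 0.02 in Mop3fxfxCreAlb livers. Its difference in the mean was 0.76 ± 0.33 (adjusted p = 0.11), and those of the other 3 probes were 0.43, 0.22 and 0.02, none of which passed. No rhythm passed for any of the 4 probes. The fitted peaks in Mop3fxfx livers fell between ZT14.2 and ZT15.2, with errors from 1.8 to 3.8 h. In Mop3fxfxCreAlb livers they lay at ZT19.1, ZT5.9, ZT17.8 and ZT6.0, from the brightest to the dimmest probe, with amplitudes below their errors. The 4 probes were read on the same arrays and are not independent.

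**Figure D3:**
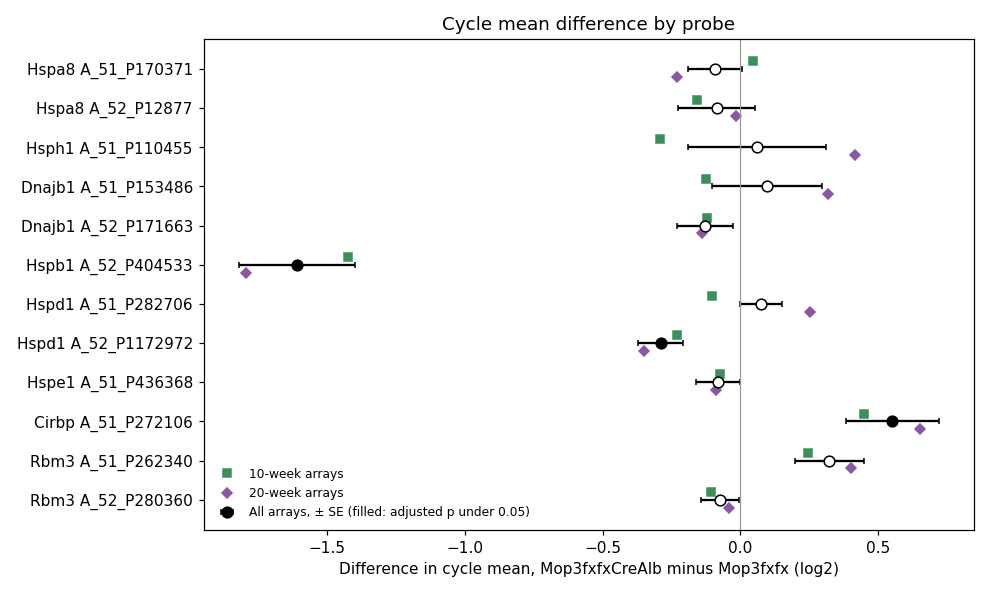
Difference in the mean over the day, Mop3fxfxCreAlb minus Mop3fxfx (horizontal axis, log2), for each of the 12 probes, with SE for all arrays and with the values of either age alone. Filled circles passed at an adjusted p under 0.05: Hspb1 at -1.61, the Hspd1 probe A_52_P1172972 at -0.29 and Cirbp at 0.55. These are 3 of 12 probes, against 20.2% of all probes.

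Age moved 2 of the 12 probes, 1 up and 1 down, against 29.8% of all probes, of which 16.8% were higher and 13% lower at 20 weeks. Hspa8 probe A_52_P12877 was lower at 20 than at 10 weeks (-0.39 ± 0.14, adjusted p = 0.041) and Hspd1 probe A_52_P1172972 higher by 0.24 ± 0.08 (adjusted p = 0.034). The other probe of each gene had the opposite sign, at 0.24 for Hspa8 and -0.11 for Hspd1. No slide held both ages, and with slide as a random block neither passed (adjusted p = 0.17 and 0.24). The call of Hspa8 held in 13 of 24 fits that each left out 1 array, with values from -0.45 to -0.30, and that of Hspd1 also in 13 of 24, with values from 0.20 to 0.29. Those that ended the Hspa8 call were the 10-week Mop3fxfx ZT0, ZT12 and ZT16, the 20-week Mop3fxfx ZT0, ZT4, ZT12 and ZT20, the 10-week Mop3fxfxCreAlb ZT0 and ZT8 and the 20-week Mop3fxfxCreAlb ZT0 and ZT4 arrays. For Hspd1 they were the 10-week Mop3fxfx ZT12, ZT16 and ZT20, the 20-week Mop3fxfx ZT8, ZT12, ZT16 and ZT20, the 10-week Mop3fxfxCreAlb ZT0 and ZT12 and the 20-week Mop3fxfxCreAlb ZT0 and ZT8 arrays. The effect of genotype did not differ between ages for any of the 12 probes (limma, lowest adjusted p = 0.094, Hspd1 probe A_51_P282706; 1 of 12 at an unadjusted p under 0.05, as had 25.7% of all probes), where 8.2% of all probes passed after adjustment. For that Hspd1 probe the adjusted p became 0.023 without the 20-week Mop3fxfxCreAlb ZT0 array.

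Other genes of the same systems were read from lists, each gene by its brightest probe. Among 20217 genes, 2206 were higher and 2234 lower in Mop3fxfxCreAlb livers, with a median difference of -0.01. Of 21 genes of the cytosolic HSP70 system, 3 were higher and 4 lower (median -0.10). The 3 with the smallest p were the HSP70-binding Dnajc7 (0.27 ± 0.05), the nucleotide exchange factor Bag2 (-0.49 ± 0.09) and the J-domain co-chaperone Dnaja4 (0.60 ± 0.12). In that list Hspa2, an HSP70 best known from testis, and the J-domain gene Dnajb6 passed the rhythm test in Mop3fxfx livers, with amplitudes of 0.63 ± 0.09 and 0.43 ± 0.07 and peaks at ZT14.0 and ZT12.7. Neither passed in Mop3fxfxCreAlb livers, and the difference between genotypes did not pass for any gene of that list.

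Of 8 measured genes of the small heat shock protein list, which leaves out Hspb1, 2 were lower (Hspb6 at -0.40 ± 0.09 and Hspb8 at -0.38 ± 0.12) and 1 was higher (Hspb11, an intraflagellar transport protein despite its name, by 0.23 ± 0.06). Of 12 genes of the HSP90 system, 2 were higher and 2 lower, among them the cyclophilin Ppid (0.50 ± 0.11), the co-chaperone Sugt1 (0.15 ± 0.05) and Chordc1 (-0.52 ± 0.17). Of 8 genes of the cytosolic chaperonin CCT, 2 were lower (Tcp1 at -0.40 ± 0.09 and Cct6a at -0.41 ± 0.12) and 1 higher (Cct5 by 0.18 ± 0.06).

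Of 11 mitochondrial chaperones and proteases, 2 were higher and 4 lower. Clpx, the unfoldase of the mitochondrial ClpXP protease, was higher by 0.88 ± 0.14, and the nucleotide exchange factors of mitochondrial HSP70, Grpel2 and Grpel1, were lower, at -0.52 ± 0.11 and -0.23 ± 0.06. Clpx also passed the rhythm test in Mop3fxfx livers with an amplitude of 1.17 ± 0.14 and a peak at ZT22.8, and its amplitude in Mop3fxfxCreAlb livers was 0.11 ± 0.14; the difference in rhythm did not pass (adjusted p = 0.14). Of 14 heat shock factors and other HSF1 targets, 1 was higher (Hsbp1, a binder of HSF1, by 0.20 ± 0.06) and 2 were lower (Dedd2 at -0.33 ± 0.11, and Chordc1, which stands in the HSP90 list too). Per2, a clock gene that HSF1 is also known to drive, was rhythmic by its brightest probe in Mop3fxfx livers, at 0.91 ± 0.14 with a peak at ZT13.2. That probe had an amplitude of 0.25 in Mop3fxfxCreAlb livers that did not pass, and its difference in rhythm did not pass either. The dimmer Per2 probe, with a fitted peak at ZT0.7 in Mop3fxfx livers, passed in neither genotype. Of 15 endoplasmic reticulum chaperones, Calr was lower, at -0.49 ± 0.14, and none was higher. By age, 7 of the 15 were lower at 20 weeks, as were 2568 of all 20217 genes. No slide held both ages, so age and slide cannot be told apart there. With slide as a random block, the genotype differences of Chordc1 and Calr did not pass (limma, adjusted p = 0.087 and 0.056). The counts higher and lower in Mop3fxfxCreAlb livers were then 2 and 2 for the HSP70 system and 2 and 0 for the HSP90 system. They were 1 and 2 for the mitochondrial list and 1 and 1 for the HSF1 list.

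Of 20 splicing and RNA-binding genes tied to temperature, 7 were higher in Mop3fxfxCreAlb livers and none lower, as was Cirbp. All 20 estimates were above 0, with a median of 0.19, against 9657 of 20217 genes above 0. The list was written with earlier results of these data known, and its genes were read on the same arrays. The count is therefore a description, and a shift of the list as a set was not tested. The 3 with the smallest p were the RNA-binding Rbmx (0.51 ± 0.09), Hnrnpa1 (0.57 ± 0.11) and Rbm5 (0.35 ± 0.09). With slide as a random block 6 were higher and all 20 estimates stayed above 0, and with Agilent's processed ratio 7 were higher and 18 of 20 were above 0. None of the 20 passed the limma rhythm test in either genotype, and 4 had an unadjusted p under 0.05 in each.

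**Figure D4:**
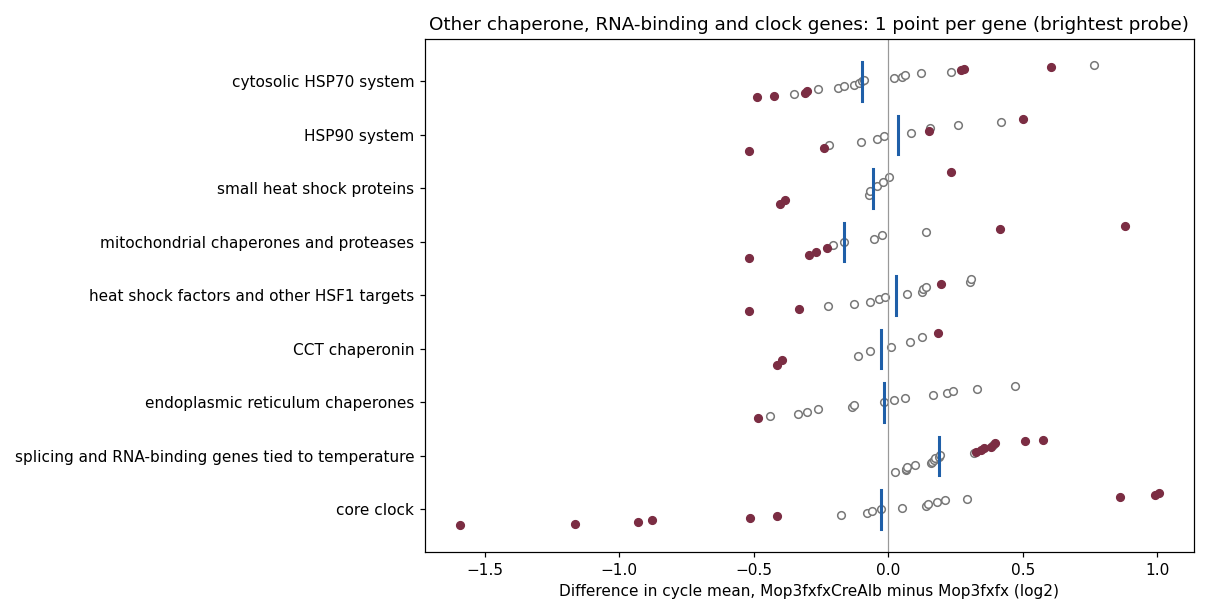
Difference in the mean over the day, Mop3fxfxCreAlb minus Mop3fxfx (horizontal axis, log2), for the genes of each list by their brightest probe, 1 point per gene; filled points passed at an adjusted p under 0.05 and the bar is the list's median. The splicing and RNA-binding genes lie above 0 with a median of 0.19, and the core clock genes spread to either side.

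Likeness was measured as the correlation of log2 ratios over the 24 arrays among 16208 genes, as a description over arrays that share a reference pool and slides. Closest to Hspb1 were Ndor1 (r = 0.90), As3mt (0.89), Dio1 (0.88), Bmp7 (0.87) and Il17rc (0.86), all lower in Mop3fxfxCreAlb livers, with differences of -0.52, -1.81, -2.05, -1.18 and -0.36. Closest to Cirbp were Vrk1 (r = 0.84), Cadm1 (0.83), Nipsnap2 (0.83), Hmgb3 (0.81) and Itpripl1 (0.80), with differences from 0.18 to 0.45. Arrays of both genotypes entered these correlations, so a gene's difference between genotypes counts towards its likeness to Hspb1 or Cirbp. The shared direction of the differences therefore follows in part from how the genes were chosen and is no separate result. Closest to Hsph1 were Creld2 (r = 0.91), Sel1l (0.91), Tbccd1 (0.89), Manf (0.87) and P4ha2 (0.87). By their brightest probes, none of these differed between genotypes or passed a rhythm test. Another Sel1l probe, A_51_P155675, was lower in Mop3fxfxCreAlb livers, at -0.31 ± 0.11 (limma, adjusted p = 0.045). A dimmer Sel1l probe did not pass (0.03 ± 0.05). Among the brightest probes of the 8 genes, the correlations of Cirbp were -0.65 with Hspb1, -0.58 with Hspe1 and -0.47 with Hsph1. These too were taken over both genotypes and ages, so differences between the genotypes enter them, and they are no measure of opposition over the day. They were -0.39 with Hspa8 and with Dnajb1. The chaperone Hspd1, by its often saturated brightest probe, went the other way at 0.47, above the 0.38 with Rbm3. Hsph1 and Dnajb1 correlated at 0.59.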

How the data were processed

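RNA was hybridised to 24 two-colour Agilent arrays of 41174 probes. The deposited files hold spot intensity values from Feature Extraction 9.1.3.1, per the file headers, with its spot flags, and the authors' log10 ratio of Cy5 over Cy3, already background-subtracted and dye-normalized per the file headers; the deposited value table equals that log10 ratio (largest difference 0). The genome build of the probe design is not given in the sources used here. Mean intensities were background-corrected by normexp (offset 50), normalized within arrays by loess with control spots (1639) and outlier spots at weight 0, and averaged per probe. Probes well above background in either channel on at least 4 of 24 arrays were kept. Saturated spots were kept. Genes were named through accessions (24375 probes), current (6301) and older (2426) symbols of RefSeq; 8072 probes kept the file's name.

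limma 3.58.1 in R 4.3.3 fitted, over all kept probes, a mean and a 24 h cosine for each genotype with age as a term, and second fits gave the times and the age by genotype term; p-values were Benjamini-Hochberg adjusted over all kept probes with a threshold of 0.05. The code was tested on simulated data. The genes were given by name, and they and the lists were chosen with earlier results of these data known. All probes of the genes are named, Arntl, up to 3 genes per list with the smallest p among those that passed each test, and the 5 genes most like Cirbp, Hsph1 and Hspb1; the marker genes, the 4 Hspa1a probes and any group of 5 or fewer were named in addition, after their values were seen. Alternatives were the ratio, offset, filter, probe choice, slide or scan as block, array weights, single ages, no age term, 6 time means, added 12 h harmonics and each array left out; leaving out both 20-week ZT0 arrays and a block for each pair of arrays of one age and time were added after seeing the data. Precision is set by how many arrays there are.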

Additional observations from a re-analysis of the deposited data

How the results depend on the processing

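The counts of 0 rhythmic probes of 12 in either genotype, and of 0 with a different rhythm, held in all 40 alternatives. Over all probes the count in Mop3fxfx livers ran from 5 with the 10-week arrays alone to 860 with scan date as a block. In Mop3fxfxCreAlb livers it reached 131 with array weights, and for the difference in rhythm it was at most 19. With so few calls, 0 of 12 was likely in each setting. The count of 12 probes with a different mean over the day was 3, against 20.2% of all probes (6029). It became 1 with slide as a fixed term and 0 with the 10-week arrays alone. Over all probes the count became 2348 with slide as a fixed term and 704 with the 10-week arrays. Leaving out 1 array gave 2 to 4 of the 12. The count with an age difference, 2, became 0 with Agilent's ratio, with the brightest probe of each gene (fewer probes tested), and with slide or scan date as a block, and 1 without a filter, with array weights, with added harmonics and without both 20-week ZT0 arrays; leaving out 1 array gave 0 to 2. The count with a difference at single times, 0, became 2 with array weights, and 0 to 1 without 1 array. The count with an age by genotype term, 0, became 1 without both 20-week ZT0 arrays, and 0 to 1 without 1 array. Apart from the fits with fewer probes or arrays, the cause was not tested. No value that had passed changed sign. Age gives no value with slide as a fixed term, a single age or no age term; single times and the age by genotype term were not run with those, nor with the time means or harmonics. The labels give no replicate numbers; arrays of the 2 genotypes can be matched by age and time, and with each of the 12 such pairs as a block, a setting chosen after seeing the data, 3 of the 12 probes and 6997 of all passed, the 3 being Hspb1 (adjusted p = 1.53e-05), Hspd1 A_52_P1172972 (0.0089) and Cirbp (0.0058). Depth is not counted on arrays: the dim second Hspb1 probe, the dim Rbm3 probe and the saturated probes of Hspa8 and Hspd1 limit those genes.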
